A study of Homo sapiens with 9 samples.

Results

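Chromosome 19 carried 752 distinct HIF-1α intervals of the 15076 that the 6 deposited peak lists of this series hold on chromosomes 1 to 22, X and Y. An interval is a stretch of chromatin that the authors' peak caller marked as enriched in 1 library, and every interval on chromosome 19 of the hg19 genome was taken, whatever its strength. HIF-1α was mapped by chromatin immunoprecipitation with sequencing (ChIP-seq) in SK-N-BE(2), an established human neuroblastoma line that carries MYCN amplification. The tested cells were kept for 48 hours at 1% oxygen (hypoxia, 3 libraries) and were set against cells kept for 48 hours at 21% oxygen (normoxia, 3 libraries); all came from this single line, and the 3 input libraries, also from 21% oxygen, have no list of their own. The comparison asks where on this chromosome HIF-1α was found in hypoxic cells, how the sites were arranged, and how many were also found in normoxic cells.

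HIF-1 is a transcription factor whose α subunit responds to oxygen. When oxygen is plentiful, prolyl hydroxylases mark HIF-1α for destruction through the VHL protein; at low oxygen it accumulates, pairs with HIF-1β (ARNT) and binds short sites with the core ACGTG or GCGTG, often at promoters and enhancers that are already open. Chromosome 19 is known for its high gene density and for families of genes that arose by tandem duplication. The best known of these are the clusters of KRAB zinc finger genes, which encode DNA-binding repressors and which lie in chromatin that carries the silencing mark H3K9me3 in many cell types.

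The lists differ in ways that bear on every count given here. The background depth recovered from the lists was similar, between 5.31 and 6.62 reads per kb in hypoxia and between 6.02 and 6.69 reads per kb in normoxia. The fragment extension, read from the shortest interval of a list, was 48 bp in hypoxia 1, 155 bp in hypoxia 2 and 167 bp in hypoxia 3, against 46 or 47 bp in the normoxia libraries, so that hypoxia 1 stands apart from the other hypoxia libraries. On chromosome 19 a median of 8, 14 and 13 reads lay under the summit of an interval in hypoxia 1, 2 and 3, and of 9, 7.5 and 10 reads in normoxia 1, 2 and 3. The labels do not say whether each library had its own culture, and the p-values therefore speak of the spread among these libraries, some of which may be technical.

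HIF-1α was called on chromosome 19 far more often in hypoxic than in normoxic cells, yet the chromosome took a smaller share of the hypoxia lists than of the normoxia lists. Hypoxia 1, 2 and 3 had 72, 281 and 369 intervals there, whereas normoxia 1, 2 and 3 had 9, 8 and 13. The counts did not overlap between groups, here or on the other chromosomes. The lowest hypoxia library had 5.54 times the intervals of the highest normoxia library on chromosome 19, against 13.9 times on the others. On chromosome 19 hypoxia averaged 241 ± 153 intervals, against 10 ± 2.65 in normoxia (SD over 3 libraries each). Geometric means differed 20-fold; a two-sided exact permutation test of log2 counts gave p = 0.1, which no split of 3 against 3 libraries can go below. Hypoxia 1, the hypoxia library with the same short extension as normoxia, had 7.36 times the geometric mean of the normoxia counts. Without hypoxia 1 the ratio of geometric means was 32.9.

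On all other chromosomes together the same ratio was 70.7, with hypoxia 1 at 25 times the normoxia mean. Put as shares, chromosome 19 held 5.11%, 4.82% and 4.84% of the lists of hypoxia 1, 2 and 3, against 12%, 25% and 11.9% in normoxia 1, 2 and 3. Every hypoxia share was below every normoxia share. Hypoxia averaged 4.92% ± 0.164, against 16.3% ± 7.53 in normoxia (SD over 3 libraries each), a difference of -11.4 percentage points (two-sided exact permutation p = 0.1, the smallest possible). Without normoxia 2, whose 8 intervals are 25% of a list of 32, the difference was -7.04 points.

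The normoxia lists were short, and their intervals on chromosome 19 were often pieces of 1 site. Their 30 intervals fell in 11 regions, a region being the stretch made by joining all intervals of the 6 lists that share at least 1 bp, and 22 of the 30 lay in the 4 regions that all 6 lists called. A region of chromosome 19 held 1.8, 1.6 and 1.3 intervals on average in normoxia 1, 2 and 3, against 1.12, 1.09 and 1.12 on the other chromosomes in the same lists. Counted by region, the shares were 4.85%, 4.78% and 4.84% in hypoxia 1, 2 and 3, against 7.81%, 18.5% and 10.4% in normoxia 1, 2 and 3. The difference was then -7.43 percentage points (exact permutation p = 0.1, the smallest possible). With only the best 32 intervals by p of every list, chromosome 19 held 3, 1 and 3 of them in hypoxia 1, 2 and 3, against 3, 8 and 6 in normoxia 1, 2 and 3. The groups then met at 3 intervals, and the difference of -10.4 points had an exact permutation p = 0.3. With only the best 27 regions of every list, chromosome 19 held 3, 0 and 2 in hypoxia 1, 2 and 3, against 2, 5 and 5 in normoxia 1, 2 and 3. The groups then overlapped, and the difference was -8.64 points (exact permutation p = 0.3). Counting by region, by best intervals and by best regions were alternatives chosen after the data were seen.

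**Figure D1:**
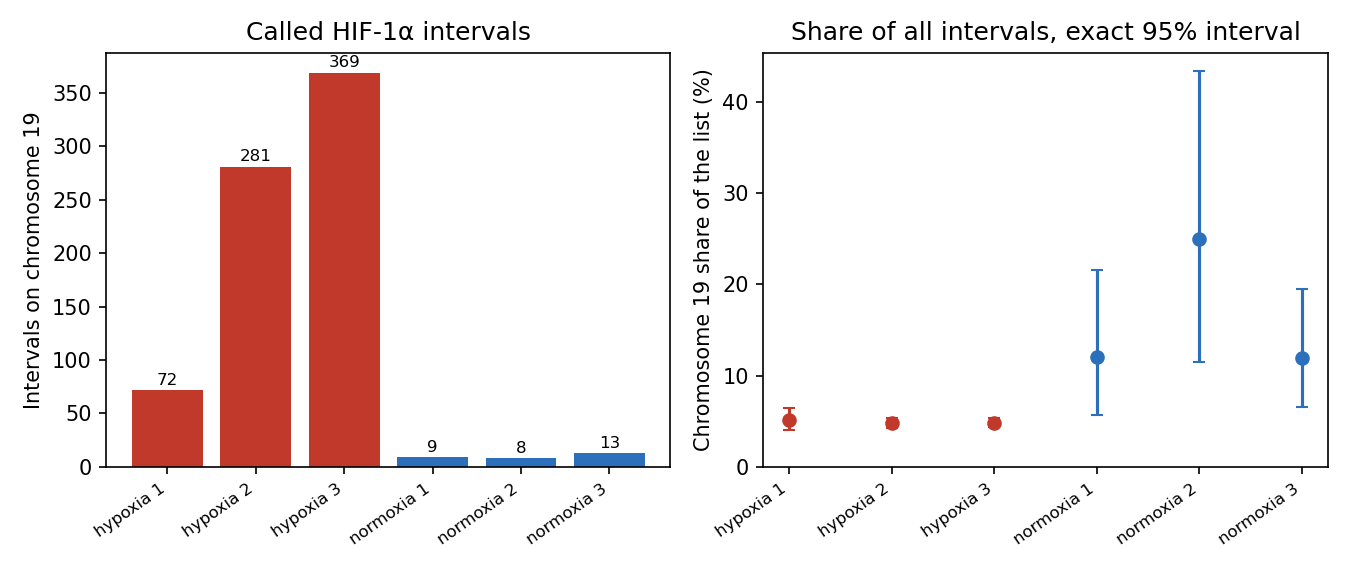
Number of called intervals on chromosome 19 in each library (left, bars, count from 0) and the chromosome 19 share of each list in percent (right, points with exact 95% binomial intervals), hypoxia in red and normoxia in blue. The hypoxia counts of 72 to 369 stand above the normoxia counts of 8 to 13, while the hypoxia shares of 4.82% to 5.11% stand below the normoxia shares of 11.9% to 25%.

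Measured by length chromosome 19 was rich in HIF-1α sites, and measured by genes it was poor in them. The chromosome is 1.91% of the length compared here, taking as its length the largest interval end, 59.1 Mb. In hypoxia 1, 2 and 3 it held 1.22, 4.76 and 6.25 intervals per Mb, against 0.441, 1.83 and 2.39 on the other chromosomes. The ratio was 2.76, 2.60 and 2.61 in the 3 libraries, with a geometric mean of 2.66 (two-sided exact sign-flip permutation p = 0.25, the smallest that 3 sign flips allow). The 3 libraries thus gave nearly the same excess although their lists differed several-fold in length.

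The name of a gene-dense chromosome was checked against RefSeq gene names of GRCh38.p14, of which only the number of genes per chromosome was used. Chromosome 19 had 1451 protein-coding genes, 7.24% of the total. That is 24.6 per Mb, the first of 23 chromosomes (1 to 22 and X), against 14.4 on chromosome 17, 8.81 on chromosome 22 and 6.13 on all others than chromosome 19. A replicated hypoxia region is one that at least 2 of the 3 hypoxia lists called. There were 210 of these on chromosome 19, or 3.55 per Mb, against 2.81 on chromosome 17, 2.09 on chromosome 22 and 1.3 on all other chromosomes together.

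Per 100 protein-coding genes chromosome 19 had 14.5 replicated regions, against 19.5 on chromosome 17, 23.7 on chromosome 22 and 21.1 on all others together. It was number 21 of the 23 chromosomes by this measure, ahead of chromosome 18 with 8.52 and X with 7.78. Zinc finger genes, taken as symbols that begin with ZNF, ZFP, ZSCAN or ZKSCAN and a number, made up 262 of its 1451 genes (18.1%), and chromosome 19 held 46.3% of all 566 genes of this kind. With them left out of the gene count there were 17.7 regions per 100 genes, against 21.5 on the other chromosomes. In the individual hypoxia libraries the intervals per gene on chromosome 19 were 0.663 times those elsewhere as a geometric mean (exact sign-flip permutation p = 0.25, the smallest possible), a measure added after the data were seen. Across the 23 chromosomes the regions per Mb and genes per Mb had a Spearman rho of 0.848, given as a description, since all points share the same 3 libraries.

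**Figure D2:**
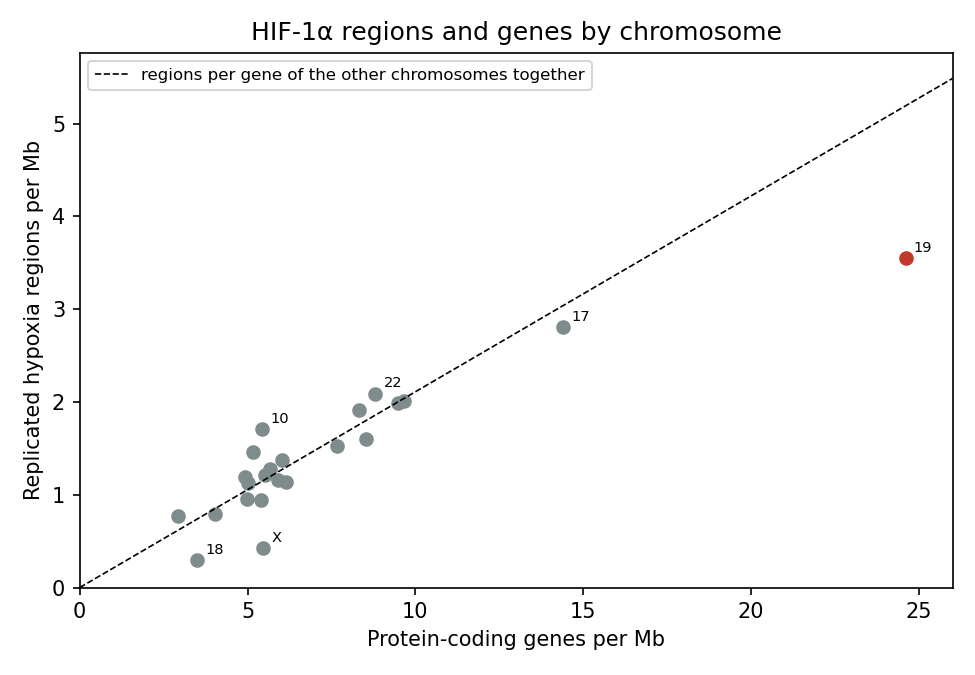
Replicated hypoxia regions per Mb (y axis) against protein-coding genes per Mb (x axis) for chromosomes 1 to 22 and X, 1 point each, chromosome 19 in red and chromosomes 10, 17, 18, 19, 22 and X named; the dashed line has the slope of the other chromosomes together, 21.1 regions per 100 genes. Chromosome 19 is the point with most genes and most regions per Mb and lies below the line, at 14.5 regions per 100 genes.

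Along the chromosome the sites were crowded in the first 20 Mb, most of the short arm, and absent around the centromere. Of the 60 bins of 1 Mb, 12 held no replicated hypoxia region, and the median bin held 3. The first 20 Mb held 126 of the 210 regions (60%), or 6.30 per Mb, with at least 1 region in every bin. From 20 to 29 Mb there was none, and from 29 Mb to the end there were 84, or 2.79 per Mb. The boundaries at 20 and 29 Mb were set after the values were seen. Each hypoxia list had the same tilt, with 42 of 72 intervals (58.3%), 175 of 281 (62.3%) and 224 of 369 (60.7%) in the first 20 Mb in hypoxia 1, 2 and 3.

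The bin from 18 to 19 Mb held the most, 17 replicated regions, followed by the first Mb of the chromosome with 10 and the bin from 2 to 3 Mb with 9. It ranked first in every hypoxia list on its own, with 8, 19 and 24 intervals in hypoxia 1, 2 and 3. The bin from 13 to 14 Mb was different: it held 24 hypoxia regions, but 6 of them were replicated. The counts of the 60 bins in hypoxia 2 and hypoxia 3 had a Spearman rho of 0.904, and hypoxia 1 had rho of 0.635 with hypoxia 2 and 0.658 with hypoxia 3; the bins share the empty centre of the chromosome, and these values are a description.

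No list had an interval between 19571859 and 27739275, a stretch of 8.17 Mb that takes in the first zinc finger window and the centromere. The hg19 assembly holds no sequence over most of the centromere, where no interval can be called. At its far edge lies a short region, 27739275 to 27739339, that hypoxia 1 and normoxia 1 alone called. Its folds were 2.13 in hypoxia 1 and 2.02 in normoxia 1, where fold is the authors' enrichment of summit reads over the local background. The local background there was 90.2 and 88.6 times the lowest of the list in hypoxia 1 and normoxia 1. Replicated regions had the longer gap of 10.3 Mb, from 19303180 to 29611223.

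The first of 3 windows placed at zinc finger clusters held no HIF-1α site. In the later windows replicated regions were not clearly sparser than in the rest of the chromosome. The 3 windows from 20 to 24 Mb, from 36.5 to 38.5 Mb and from 52 to 54 Mb are 13.5% of the length of the chromosome and held 10 of the 210 replicated regions (4.76%, exact 95% interval 2.31% to 8.58%). That is 1.25 per Mb in the windows and 3.92 per Mb in the rest, a ratio of 0.319 (0.151 to 0.600). The windows are approximate and were not checked against genes placed on hg19; with both ends of each drawn in by 0.5 Mb the ratio was 0.210. The intervals of single libraries gave ratios of 0.278, 0.285 and 0.327 in hypoxia 1, 2 and 3. All these ratios pool the empty first window with the later ones. For replicated regions each later window alone had a ratio of 0.696, with an exact 95% interval of 0.224 to 1.65. Such exact intervals, here and below, reflect counting error alone and take the regions as independent of one another.

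The window from 20 to 24 Mb held none of the 436 regions of the chromosome, which allows a share of up to 0.688% (3 counts of the total), while it is 6.77% of the length. The other two windows held 5 replicated regions each, 2.50 per Mb. Set against the rest of the chromosome without the 10.3 Mb gap, at 4.47 per Mb, these windows together had a ratio of 0.560. Its interval, 0.264 to 1.05, includes 1. That rest takes in the first 20 Mb, at 6.30 per Mb, and the gap left out of it was found in these same data. Both windows lie beyond 29 Mb, where there were 2.79 per Mb with these windows included. Over all hypoxia regions, replicated or not, the window from 36.5 to 38.5 Mb had 14, or 7 per Mb, and that from 52 to 54 Mb had 6, or 3 per Mb, against 8.14 per Mb outside the 3 windows.

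In the middle window hypoxia 1, 2 and 3 had 1, 7 and 12 intervals, and in the last one 2, 5 and 6, so the order of these windows differed between libraries. No normoxia list had an interval in any of the 3 windows, of 9, 8 and 13 on the chromosome, which by the same floor of 3 counts allows shares of up to 33.3%, 37.5% and 23.1% and so says little. A further 4 windows were placed approximately at smaller zinc finger clusters, 9 to 10, 12 to 13, 44 to 45 and 57 to 59 Mb. They had 17 replicated regions, or 3.40 per Mb, and a ratio to the rest of the chromosome of 0.953 (0.544 to 1.57). That rest, at 3.57 per Mb, includes the first 3 windows and the 10.3 Mb gap. Intervals of single libraries gave ratios of 0.152 (0.00380 to 0.877), 0.964 (0.600 to 1.48) and 0.686 (0.424 to 1.06) in hypoxia 1, 2 and 3. Hypoxia 1 had 1 interval in these windows.

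**Figure D3:**
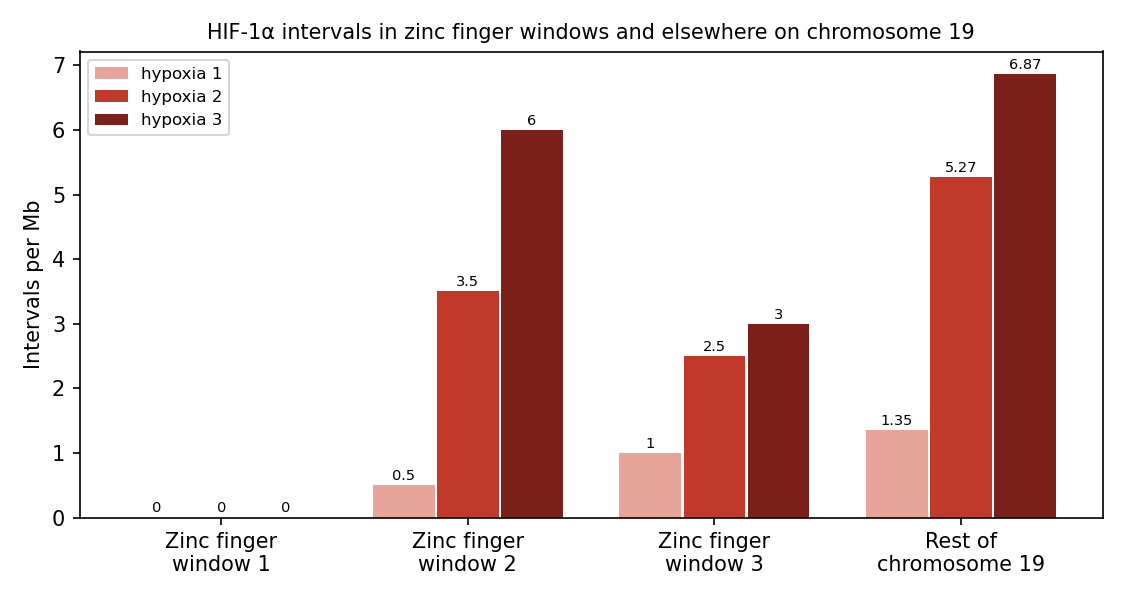
Intervals per Mb (y axis, from 0) in each hypoxia library, 1 bar per library, in the zinc finger windows from 20 to 24 Mb (1), 36.5 to 38.5 Mb (2) and 52 to 54 Mb (3) and in the rest of chromosome 19. The first window is empty in all 3 libraries, and the rest of the chromosome had 1.35, 5.27 and 6.87 intervals per Mb in hypoxia 1, 2 and 3.

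Of the 10 replicated regions in these windows 1 was strong. The region from 53606409 to 53606963 had folds of 12.1, 17 and 26 in hypoxia 1, 2 and 3, on 16, 57 and 48 summit reads, and its summits fell at 53606657, 53606637 and 53606645. It was called in no normoxia list. A further 2 were called by all 3 hypoxia lists, 36544874 to 36545494 with folds of 5.31, 6.52 and 15.1, and 52391098 to 52391331 with folds of 4.98, 4.61 and 6.15.

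The other 7 were called by hypoxia 2 and hypoxia 3 alone. Their folds lay between 5.37 and 9.36 in hypoxia 2 and between 4.80 and 9.41 in hypoxia 3, on 10 to 21 and 11 to 19 reads. They were 52552039 to 52552339, 37663589 to 37663883, 52430253 to 52430720, 52692740 to 52693047, 36736848 to 36737234, 36618733 to 36618965 and 37861822 to 37862099, in falling order of fold rank.

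Sites on chromosome 19 stood closer together than elsewhere, a difference not separated here from their higher density per Mb. The gap from 1 replicated region to the next had a median of 107 kb (quartiles 28.3 and 317 kb, 209 gaps), against 146 kb on chromosome 17, 171 kb on chromosome 22 and 230 kb on all other chromosomes. Close neighbours were not much more frequent: 26 of 209 gaps (12.4%, exact 95% interval 8.29% to 17.7%) were at most 10 kb, against 14.1% on chromosome 17, 7.55% on chromosome 22 and 10.3% (9.34% to 11.3%) on all other chromosomes. The interval of the chromosome 19 share includes the share elsewhere. Over the 58 regions that remain when hypoxia 2 or hypoxia 3 is left out, 5.26% of gaps were at most 10 kb. At most 50 kb was reached by 34.4% of gaps on chromosome 19 and 24.6% on the other chromosomes.

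Linked by gaps of at most 10 kb, 44 of the 210 regions formed 18 groups and the other 166 stood alone. The largest group had 4 regions within 10.2 kb, from 934929 to 945162, of which 2 were called in all 3 hypoxia lists. A further 6 groups had 3 regions each. Among them, 10859493 to 10871344 held a region with a fold of 76.0 in hypoxia 3, and 8426614 to 8429667 packed its 3 regions into 3.05 kb.

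**Figure D4:**
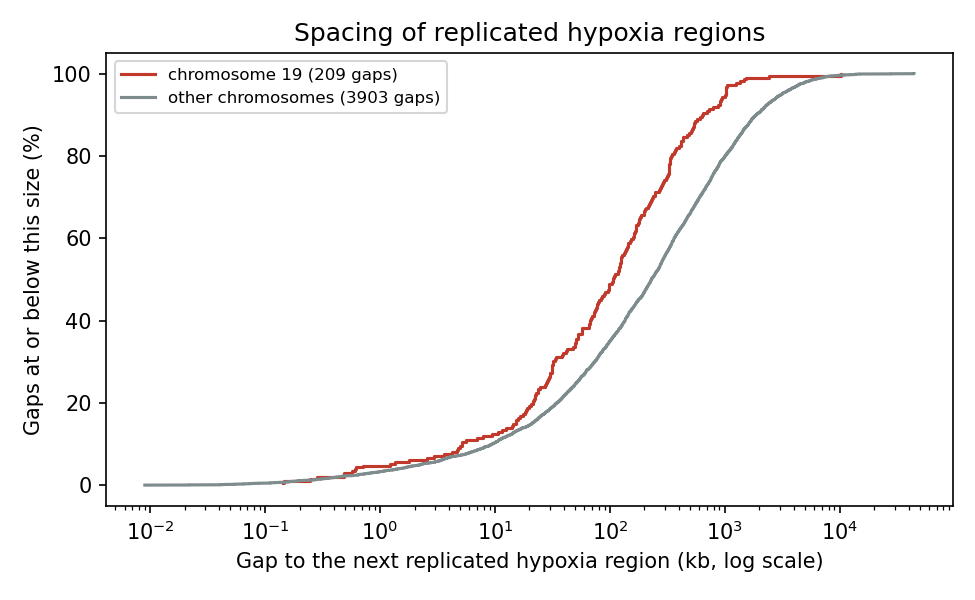
Cumulative share of gaps between neighbouring replicated hypoxia regions (y axis, percent) by gap size in kb (x axis, log scale), chromosome 19 in red with 209 gaps and the other chromosomes in grey with 3903 gaps. The median gap is 107 kb on chromosome 19 and 230 kb elsewhere, and the curves lie closest at small gaps, where 12.4% and 10.3% are at most 10 kb.

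Intervals on chromosome 19 were about as wide as those elsewhere in the same list. The median width was 112, 244 and 266 bp in hypoxia 1, 2 and 3, against 110, 246 and 259 bp on the other chromosomes, a mean difference of 2.00 ± 4.58 bp (SD, n = 3; two-sided exact sign-flip permutation p = 0.75). That difference is within the spread between libraries and changed sign with the threshold on q or fold. The widest intervals were 677, 911 and 1008 bp. The normoxia medians of 90, 59 and 143 bp rest on 9, 8 and 13 intervals and stood against 75.5, 129 and 105 bp elsewhere, with no common direction.

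Intervals with several summits made up 22.2%, 5.34% and 6.5% of those in hypoxia 1, 2 and 3, against 23.1%, 4.29% and 4.15% elsewhere. Median folds were 6.32, 7.02 and 6.5, against 6.07, 6.52 and 6.10 elsewhere. Joined over the lists, replicated regions on chromosome 19 had a median width of 375 bp (quartiles 296 and 515, range 191 to 1008 bp), against 364 bp elsewhere. By these measures single sites on chromosome 19 looked much like those of the rest of the genome, with slightly higher median folds in all 3 hypoxia lists. Their local background was lower. Its median was 1.27, 1.08 and 1.13 times the lowest of the list in hypoxia 1, 2 and 3, against 1.66, 1.35 and 1.37 elsewhere.

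Nearly every site of the shortest hypoxia list was found again in the other hypoxia lists. All 436 regions of chromosome 19 had a hypoxia call. Of these 210 were replicated (48.2%, exact 95% interval 43.4% to 53.0%), against a background of 44% over all chromosomes, and 58 were called in all 3 lists (13.3%, 10.3% to 16.9%), against a background of 11.5%. Both intervals include the background. On chromosome 17 the shares were 43.8% and 15.2%, and on chromosome 22 45.7% and 12.8%.

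Of the 61 regions that hypoxia 1 called, 58 (95.1%, 86.3% to 99.0%) were called in both other hypoxia lists, against 85.9% (83.8% to 87.8%) on the other chromosomes. No region was shared by hypoxia 1 with 1 of the others alone. The remaining 152 replicated regions came from hypoxia 2 and hypoxia 3, while 66 regions were in hypoxia 2 alone, 157 in hypoxia 3 alone and 3 in hypoxia 1 alone. Leaving out hypoxia 2 or hypoxia 3 thus left 58 regions that the remaining pair shared.

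Sites called more often were also stronger and wider within a list. In hypoxia 3 the median fold was 15.5 at regions of all 3 lists, 7.56 at regions of exactly 2 and 5.30 at its own. The medians in hypoxia 2 were 12, 7.29 and 5.46. Median interval widths in hypoxia 3 were 494, 293 and 196 bp in the same order. A region of all 3 lists had to pass the threshold of each, which favours strong sites. On the other chromosomes the median folds at regions of all 3 lists were 14.6 in hypoxia 2 and 16.9 in hypoxia 3. Summits of hypoxia 2 and hypoxia 3 lay a median of 16 bp apart at the 58 regions of all 3 lists, within 100 bp at 55 of them, and those of hypoxia 1 lay a median of 36.5 bp from hypoxia 2 and 45 bp from hypoxia 3.

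Some sites of chromosome 19 were among the strongest of the genome, in about the number that its share of the regions would give. Regions called in all 3 hypoxia lists were ranked by the mean of their fold percentiles within the 3 lists. Of the first 20 of the 1085 such regions, 2 lay on chromosome 19, and of the first 100, 5. That is close to its part of all 1085, 58 regions or 5.35%. These 58 regions had median fold percentiles of 48.8, 84.4 and 90.5 in hypoxia 1, 2 and 3. Such regions on the other chromosomes had higher medians, 56.0, 88.5 and 91.8. The first 10 regions on the chromosome stood at ranks 7 to 214.

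First was the region from 34849923 to 34850743, rank 7 of the genome. Its folds were 33.6, 60.5 and 83.8 in hypoxia 1, 2 and 3, on 61, 195 and 219 summit reads, and the 3 summits fell within 25 bp, at 34850272, 34850289 and 34850264. Normoxia 3 called it too, with a fold of 6.5 on 9 reads, and normoxia 1 and normoxia 2 did not. It stood 317 kb from the next replicated region.

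The region from 18336395 to 18337259 came second, with folds of 27.1, 56.6 and 82.2 in hypoxia 1, 2 and 3 on 35, 119 and 154 reads, and no normoxia list called it. The region from 4968265 to 4969085 followed, with folds of 23.5, 61.0 and 64.1 and no normoxia call. The fourth, 10859493 to 10860205, had folds of 20.3, 71.2 and 76.0 in hypoxia 1, 2 and 3, against 7.78 in normoxia 3, the only normoxia list that called it. Each of these 4 sites was a single interval in every hypoxia list.

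The next 6 regions of the ranking reached folds of up to 21.4 in hypoxia 1, 55.2 in hypoxia 2 and 46.5 in hypoxia 3. The region from 5719928 to 5720780 had folds of 17, 55.2 and 24.5 in hypoxia 1, 2 and 3, and 11300288 to 11300772 had 11.4, 34.3 and 46.5. The region in the last zinc finger window, described above, was seventh. Then came 18118378 to 18118914 with 10.6, 20.8 and 26, 18334872 to 18335785 with 21.4, 15.1 and 12.9, and 49648990 to 49649568 with 8.94, 29.6 and 45.6. Among these 6, 18334872 to 18335785 alone had a normoxia call. The order of the folds over hypoxia 1, 2 and 3 was turned round there, highest in hypoxia 1, unlike at the other 9 regions, where hypoxia 1 was lowest; since the extensions differ, a fold places a region within its own list and is not compared between lists.

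The crowded Mb from 18 to 19 held 3 of these 10 regions. All 17 of its replicated regions were called by hypoxia 2 and hypoxia 3, and 5 also by hypoxia 1. These 5 lay in its first part, at 18061143 to 18061499, 18118378 to 18118914, 18263189 to 18264031, 18334872 to 18335785 and 18336395 to 18337259. The last pair of these stands 0.609 kb apart. The first of the pair was called in all 6 libraries, whereas the second had the higher folds in every hypoxia list and no normoxia call.

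The 12 regions of this Mb without a hypoxia 1 call had folds from 5.01 to 18 in hypoxia 2 and from 5.21 to 21.7 in hypoxia 3. The strongest of them, 18668281 to 18668753, had 35 and 40 summit reads in hypoxia 2 and hypoxia 3. Toward the end of the Mb, 6 of them lay between 18844039 and 18887862. The 3 from 18867780 to 18875181 formed 1 of the groups with gaps of at most 10 kb.

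Of the 11 regions with a normoxia call, 10 were replicated hypoxia regions, against a background of 67.4% over all chromosomes. Of the 210 replicated hypoxia regions 10 had a normoxia call (4.76%, exact 95% interval 2.31% to 8.58%), against a background of 2.25% over all chromosomes. The other 200 (95.2%) had none, against a background of 97.8%; with normoxia lists this short, such a share has to be high. Over the 58 regions that remain when hypoxia 2 or hypoxia 3 is left out, 82.8% had none. The background of 97.8% is over all replicated regions and is not the background of this narrower set, for which none is given. All 10 replicated regions with a normoxia call were called in all 3 hypoxia lists. Of these 10, 5 had their normoxia call in normoxia 3 alone. The eleventh was the short region of very high local background at 27739275.

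Of the same 11 regions, 5 were called in at least 2 normoxia lists, against a background of 21.0% over all chromosomes. Over the genome 29 regions were, so chromosome 19 held 17.2% of them (exact 95% interval 5.85% to 35.8%). It held 4 of the 20 regions that all 6 lists called (20%, 5.73% to 43.7%), while it held 5.08% (4.43% to 5.79%) of all replicated hypoxia regions. The first interval lies just above 5.79% and the second overlaps it; regions are few, and no test was run on these shares.

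The 4 regions of all 6 lists had mean fold percentiles of 82.7 to 91.4 within the hypoxia lists. At 18334872 to 18335785 the summit reads were 29 in hypoxia 1, against 7, 8 and 16 in normoxia 1, 2 and 3. At 7098749 to 7099441 they were 17, against 10, 7 and 13. At 18263189 to 18264031 they were 24, against 9, 9 and 14, and at 56165600 to 56166264 they were 15, against 9, 9 and 15. Before correction for depth, hypoxia 1 was at or above each normoxia library at all 4. Corrected for depth, hypoxia 1 was 0.945 times normoxia 3 at the last of them and above the normoxia library in every other comparison.

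Hypoxia 2 and hypoxia 3, which have a longer extension, had 31 and 41, 21 and 31, 18 and 32, and 22 and 50 reads at these 4 regions in the same order. Among the libraries of short extension, the fold of the second region was 13.7 in hypoxia 1, against 8.41, 6.24 and 9.10 in normoxia 1, 2 and 3. That of the third was 13.6 in hypoxia 1, against 7.39, 7.80 and 11.3 in normoxia. That of the fourth was 9.48 in hypoxia 1, against 6.30, 7.80 and 9.16 in normoxia. Joined over the 6 lists these regions were 665 to 914 bp wide. The 58 regions of all 3 hypoxia lists had a median joined width of 530 bp. A joined width can only grow as lists are added, so these widths are partly set by the number of lists. In normoxia the short-extension lists cut these regions into up to 3 intervals.

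The fifth region, 55896687 to 55897345, had 20 reads in hypoxia 1, against 7 and 16 in normoxia 2 and normoxia 3. The remaining 5 had a normoxia call in normoxia 3 alone. The 2 strongest hypoxia sites among them, at 34849923 and 10859493, had 61 and 30 reads in hypoxia 1, against 9 and 10 in normoxia 3. The last 3, at 47616337, 54694354 and 59069986, had 9, 11 and 7 reads in hypoxia 1, against 9, 7 and 9 in normoxia 3. These 3 had the fewest hypoxia 1 reads of the 10 regions; a normoxia call itself takes several reads, so the normoxia counts shown cannot lie much lower.

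Corrected for depth, the reads of hypoxia 1 over those of normoxia 1 had a median ratio of 2.21 (range 1.68 to 4.19) at the 4 regions of low local background that both called, above 1 at all 4. Against normoxia 2 the median was 2.42 (1.52 to 3.30), above 1 at 5 of 5, and against normoxia 3 it was 1.36 (0.735 to 6.41), above 1 at 7 of 10. Each ratio sets 1 library against 1 other, over regions that both called, and the regions are not replicates.

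**Figure D5:**
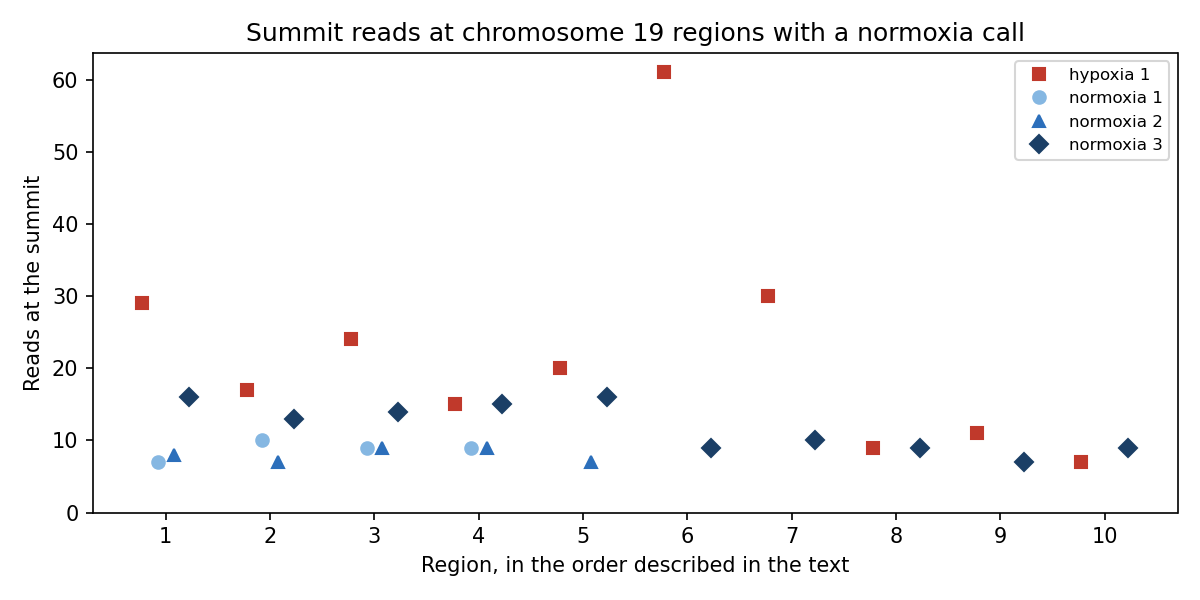
Reads at the summit (y axis, from 0, not corrected for depth) in the 4 libraries with a short fragment extension at the 10 replicated hypoxia regions with a normoxia call, numbered in the order given in the text; a missing point means no call in that library. Hypoxia 1 lies at or above every normoxia library at regions 1 to 9, at 61 reads against 9 in normoxia 3 at region 6, and below normoxia 3 at region 10.

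A missing normoxia call does not show that HIF-1α was absent. On chromosome 19, 65, 66 and 59 of the 72 hypoxia 1 intervals had no call in normoxia 1, 2 and 3. The share with a call was 9.72%, 8.33% and 18.1%, against 2.99%, 1.42% and 5.01% elsewhere. At the uncalled intervals the caller's threshold stood at a median of 6, 7 and 6 reads, against 7 in each list elsewhere. The hypoxia 1 reads, scaled to the depth of the normoxia list, reached that number at 84.6%, 59.1% and 66.1% of the uncalled intervals of chromosome 19. They reached 2 times that number at 16.9%, 10.6% and 10.2%. Elsewhere the shares were similar, 85.3%, 62.1% and 69.4% for that number and 19.5%, 12.2% and 14.3% for 2 times. For most of the uncalled intervals, here and elsewhere, a signal 0.5 times as strong as in hypoxia 1 would therefore have gone uncalled.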

How the data were processed

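BWA 0.7.17, MACS2 and the build hg19 are named in the submitters' processing notes; how MACS2 was set is not given in the sources used here. Each HIF-1α library has 1 deposited narrowPeak list. The score the authors deposited is 10 times −log10 q, truncated to whole numbers, in each of 16463 lines. The deposited fold is a ratio of summit reads to local background. The −log10 p and −log10 q values, also as deposited, come from the peak caller.

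Lines of 1 list that gave the same interval counted as 1, represented by the summit of lowest p; positions are 1-based. A region or interval belongs to the bin or window that holds its middle. Reads and local background were recovered from fold and p as whole numbers that match −log10 p within 0.001, at 100% of the lines; background depth is the lowest local background over the shortest interval. The code was tested on simulated data with known answers (Python 3.11.15, SciPy 1.17.1). Groups come from the sample titles. Counts, shares and widths were compared over libraries by exact permutation tests, and shares have exact binomial (Clopper-Pearson) 95% intervals.

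Alternatives were stricter thresholds on q and fold, sites of high local background left out, each library left out, every summit counted and covered length. Others were regions in all 3 hypoxia lists, reciprocal overlap, further windows and a replicate block. Counting by region, by best intervals, by best regions and per gene was added after seeing the data. The regions named are the first 10 by fold rank in all 3 hypoxia lists, all with a normoxia call, all replicated ones in the zinc finger windows and those of the most crowded Mb. The chromosome, the windows and the lists were chosen with earlier results of these data known. RefSeq tables of GRCh38.p14 gave genes per chromosome and promoter motifs, and no coordinates. No hg19 sequence or annotation was used here, so regions carry no gene names or sequences.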

Additional observations from a re-analysis of the deposited data

How the results depend on the processing

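The ratio of interval counts lay between 14.5 and 32.9 and the difference in shares between -15.8 and -7.04 points under all alternatives run. The density ratio to other chromosomes was 0.663 per protein-coding gene and above 1 in the other 8. The density ratio of the zinc finger windows stayed between 0.210 and 0.523 in all 13, each of which kept the empty first window or its shortened form. Without that window and the gap around it, a gap found in these same data, the ratio was 0.560 (0.264 to 1.05). The rest then takes in the first 20 Mb, at 6.30 per Mb, while both later windows lie beyond 29 Mb, at 2.79 per Mb. The width difference was -2.67 bp at −log10 q of at least 5 and -6.33 bp at a fold of at least 6, and lay between -0.500 and 4 bp with 1 library left out; the cause was not tested. Replicated regions numbered 58 in all 3 hypoxia lists, and 58 to 210 with 1 library left out. The share without a normoxia call was 82.8% in all 3 lists, 97.8% with reciprocal overlap of at least 50%, and 82.8% to 97.6% with 1 library left out. The share within 10 kb of the next was 5.26% in all 3 lists and 5.26% to 12.4% with 1 library left out; within 50 kb it was 34.4%. Fewer regions enter when all 3 lists must call. With the replicate number as a replicate block the results were -11.4 points and a ratio of 20 (exact sign-flip permutation p = 0.25 each, the smallest possible), equal to the main values by construction. Deviations of same-numbered libraries correlated at 0.0835, 0.0310 and -0.0126 over 9420 regions, so the numbers were not taken to pair them.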

Other observations

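The promoters of zinc finger genes on chromosome 19 held the HIF-1 core about as often as others. In the RefSeq promoter table of GRCh38.p14 (250 bases before to 50 after a gene's start, protein-coding genes, both strands searched), ACGTG stood in 53 of 286 promoters of these genes (18.5%, exact 95% interval 14.2% to 23.5%), against 275 of 1262 (21.8%, 19.5% to 24.2%) for the other genes of the chromosome. The E-box, a motif of other factors, also contains this core. ACGTG or GCGTG stood in 58.4% (52.4% to 64.2%) of the zinc finger promoters and in 56.8% (54.0% to 59.6%) of the others. Over all promoters of chromosome 19 ACGTG stood in 21.2%, against 23.2% on the other chromosomes in the table. Either core stood in 57.1% on chromosome 19, against 54.5% on the others. A match is a description, not a site, and these promoters were not tied to the HIF-1α regions, which lie on another build.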
